A study of Mus musculus with 24 samples.

Results

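The collagen gene family was read across 4 days of lower jaw development in mouse embryos with and without p63. Its members were all genes whose symbol in the array annotation has the form Col, a number, a and a number, apart from Col17a1 and Col7a1, the collagens of the epidermal anchoring complex. That gave 39 of 19057 annotated genes, each read on its brightest probe, and all 39 are accounted for. A detection p-value ranks a probe among the negative control beads, and 32 members had one under 0.05 on at least 3 arrays and entered the tests with 12678 genes in all. Of these, 22 were detected on all 24 arrays. Col10a1, Col4a3, Col4a4, Col5a3, Col6a4, Col6a5 and Col6a6 were detected on 0 of 24 arrays and have no measured level here. Col6a3, Col12a1 and Col20a1 were not analysed here.

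Each of 24 single-colour Illumina bead arrays was hybridised with RNA of the mandibular prominence, the embryonic swelling that forms the lower jaw, of 1 unpooled embryo. The 8 groups of 3 embryos were p63-/- and p63+/- at embryonic days 10, 11, 12 and 13 (E10 to E13), all with the Trp63tm2Brd allele of the strain B6.129S7-Trp63tm2Brd/J, on both chromosomes in p63-/- and on 1 in p63+/-. Every genotype difference is therefore p63-/- against heterozygotes, and embryos without the mutant allele were not analysed here. Within a stage and genotype the embryos came from different litters. Trp63, the targeted gene, read 8.97 to 9.89 log2 units in p63-/- and 10.19 to 11.32 in p63+/-, with no overlap. The markers of crest-derived jaw mesenchyme (Prrx1, Twist1, Pdgfra, Msx1, Dlx5, Dlx2 and Hand2) were detected on all 24 arrays. On an array 43.4% to 49.0% of its probes were detected, and each array slide held the 6 arrays of 1 stage, so stage and slide cannot be told apart.

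Collagens are secreted or membrane-bound proteins built from chains that wind into a helix, and the chains are grouped into numbered types. Fibril-forming collagens (types I, III and V in soft tissue and bone, types II and XI in cartilage) make rope-like fibrils, fibril-associated collagens coat them, and beaded-filament and short-chain collagens form separate networks. Type IV collagen is the mesh of basement membranes, including the one under the oral epithelium, and multiplexins link that membrane to the tissue around it. In the lower jaw, cartilage collagens mark Meckel's cartilage and type I collagen marks the bone that condenses beside it, while p63 acts in the overlying epithelium.

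Between E10 and E13 most collagen genes rose, and none of the 32 passed the test for genotype. Of all genes, 2.36% passed it on the average of the stages and 0.300% to 0.805% at single stages. The count of 0 of 32 lies near these shares. In p63-/- 27 of 32 tested members differed at E13 against E10, beside 56.0% of all genes tested, with 23 higher and 4 lower, where 27.5% and 28.5% of all genes were higher and lower. In p63+/- 22 of 32 differed, beside 53.4% of all genes, with 19 higher and 3 lower, where 25.4% and 28.0% of all genes were higher and lower. The median log2 difference of the 32 members was 1.27 in p63-/- and 0.89 in p63+/-, against -0.04 and -0.05 over all genes. The 19 members higher in both genotypes (22.2% of all genes) were Col1a1, Col1a2, Col3a1, Col5a1, Col5a2, Col24a1, Col27a1, Col14a1, Col16a1, Col22a1, Col9a2, Col6a1, Col6a2, Col8a1, Col8a2, Col4a1, Col4a2, Col15a1 and Col26a1. Those lower in both (22.8% of all genes) were Col9a1, Col9a3 and Col18a1. Log2 differences above 2 were found for 11 members in p63-/- and for 10 in p63+/-, against 3.60% and 3.57% of all genes. All 3 E13 arrays lay above all 3 E10 arrays for 22 members in p63-/- and 21 in p63+/-, as they did for 27.4% and 31.3% of all genes. In tissue RNA, more cells of a type and more RNA per cell cannot be told apart.

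**Figure D1:**
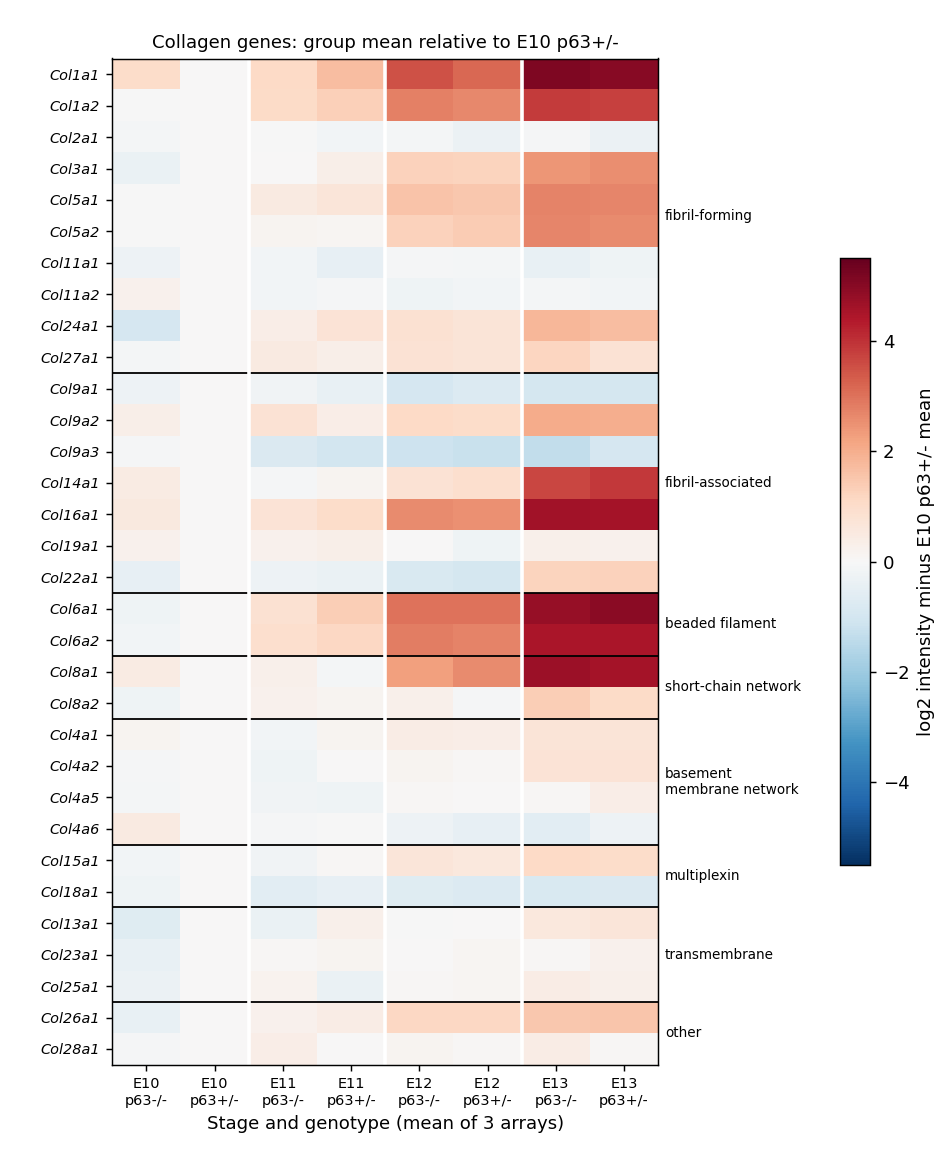
Heat map of the 32 tested collagen genes (rows, by structural class) in the 8 groups (columns, p63-/- left of p63+/- at each stage). Colour is the group mean log2 intensity of 3 arrays minus the E10 p63+/- mean of the same probe. Col1a1, Col1a2, Col6a1, Col6a2, Col16a1, Col8a1 and Col14a1 darken most towards E13, in both genotypes, while Col2a1, Col11a1 and Col11a2 stay pale.

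Among the fibril-forming collagens, Col1a1 encodes the alpha 1 chain of type I collagen, the main fibre of bone and dermis. Its levels by array at E10 were 7.81, 7.81 and 11.00 in p63-/- and 7.89, 7.59 and 8.07 in p63+/-. At E11 they were 8.95, 8.64 and 9.24 in p63-/- and 9.67, 9.03 and 9.92 in p63+/-. At E12 they were 11.51, 12.37 and 10.23 in p63-/- and 10.98, 11.69 and 10.40 in p63+/-, and at E13 13.93, 12.84 and 12.24 in p63-/- and 13.57, 12.79 and 12.22 in p63+/-. Every E13 array lay above every E10 array, and 1 array, E10 p63-/- replicate 3, stood above the other 5 of its stage. The E13 minus E10 log2 difference was 4.13 (SE 0.68, adjusted p = 4.74e-05) in p63-/- and 5.01 (SE 0.68, adjusted p = 7.51e-06) in p63+/-, a 32.3-fold rise in p63+/-. Leaving out E10 p63-/- replicate 3 gave 5.19 (adjusted p = 7.25e-07) in p63-/-.

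Col1a2, which encodes the chain that joins that of Col1a1 in type I collagen, moved the same way. At E13 it read 12.47, 11.94 and 11.36 in p63-/- and 12.26, 11.79 and 11.52 in p63+/-, and at E10 7.90, 7.21 and 9.13 in p63-/- and 8.11, 7.67 and 8.48 in p63+/-. Its 6 arrays read 8.61 to 9.70 at E11 and 10.08 to 11.44 at E12. The difference was 3.85 (SE 0.44, adjusted p = 7.95e-07) in p63-/- and 3.77 (SE 0.44, adjusted p = 1.41e-06) in p63+/-. Col3a1, the type III chain of elastic soft tissue, read 13.25, 12.76 and 11.90 in p63-/- and 13.18, 12.87 and 12.25 in p63+/- at E13 and 9.73, 9.62 and 10.17 in p63-/- and 10.30, 10.03 and 10.29 in p63+/- at E10. It rose by 2.80 (SE 0.31) in p63-/- and 2.56 (SE 0.31) in p63+/-. Its second probe, detected on all 24 arrays, rose by 2.98 and 1.87.

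The start regions of Col1a2 and Col3a1, a pair of fibrillar genes that rose in both genotypes and have a RefSeq promoter window (assembly GRCm38.p6, 250 bases before to 50 after the start), are shown to set their bases side by side. The Col1a2 window is chr6:4505368-4505667 on the plus strand and the Col3a1 window chr1:45311288-45311587 on the plus strand. Capitals mark matches on either strand to TATAAA, the TATA box motif. They also mark CCAAT, named after its letters. The capitals for GGGCGG show the GC box.
Col1a2: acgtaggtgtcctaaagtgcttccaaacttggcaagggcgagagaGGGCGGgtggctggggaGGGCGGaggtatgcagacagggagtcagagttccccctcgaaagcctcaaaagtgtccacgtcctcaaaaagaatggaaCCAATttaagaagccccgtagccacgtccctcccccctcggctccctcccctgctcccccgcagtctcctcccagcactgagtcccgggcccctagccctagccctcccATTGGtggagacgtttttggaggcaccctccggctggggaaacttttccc
Col3a1: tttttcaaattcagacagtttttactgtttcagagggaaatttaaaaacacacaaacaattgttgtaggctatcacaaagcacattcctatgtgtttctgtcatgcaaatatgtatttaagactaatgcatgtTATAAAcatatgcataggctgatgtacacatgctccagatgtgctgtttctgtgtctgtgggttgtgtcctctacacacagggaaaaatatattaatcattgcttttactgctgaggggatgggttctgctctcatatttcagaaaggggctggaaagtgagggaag
The Col1a2 window holds 2 CCAAT and 2 GGGCGG matches and the Col3a1 window 1 TATAAA match. Of the bases, 61% were G or C in Col1a2 and 37.7% in Col3a1. Windows were at hand for 31 of 39 members. TATAAA stood in 4 of these 31 (13.6% of 32851 windows in the table), CCAAT in 11 (37.4%) and GGGCGG in 21 (35.7%). A member counted if any of its windows held the motif, while the percentages are of single windows. The counts and percentages are therefore not directly comparable where a gene has more than 1 window. Among the 14 members with a window that rose in both genotypes, TATAAA stood in 1, CCAAT in 4 and GGGCGG in 10. A match describes the letters of the window and is not a binding site.

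Type V collagen seeds and narrows type I fibrils, and both its tested chains rose. Col5a1 read 14.14, 13.57 and 13.11 in p63-/- and 13.99, 13.63 and 13.13 in p63+/- at E13 and 10.88, 10.61 and 11.11 in p63-/- and 10.94, 10.77 and 10.97 in p63+/- at E10. Its difference was 2.74 (SE 0.26) in p63-/- and 2.69 (SE 0.26) in p63+/-, and that of Col5a2 was 2.71 (SE 0.30) and 2.62 (SE 0.30). Col24a1, a fibrillar collagen known from forming bone, rose by 2.75 (SE 0.36) in p63-/- and 1.70 (SE 0.36) in p63+/-. Its E10 arrays read 7.27, 6.82 and 6.58 in p63-/- and 7.76, 7.71 and 7.97 in p63+/-, so that the p63-/- arrays lay below the p63+/- arrays at that stage. Col27a1, a fibrillar collagen of cartilage, read 8.25, 7.83 and 7.93 in p63-/- and 7.82, 7.53 and 7.48 in p63+/- at E13 and 6.77, 6.74 and 6.61 in p63-/- and 7.15, 6.45 and 6.87 in p63+/- at E10, and rose by 1.30 in p63-/- and 0.79 in p63+/-.

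On their brightest probes, the cartilage fibril chains Col2a1, Col11a1 and Col11a2 did not pass the test between E13 and E10 in either genotype. Col2a1, the type II chain that fills cartilage, was bright on every array from E10 on. It read 11.77, 12.79 and 12.25 in p63-/- and 11.70, 12.12 and 12.19 in p63+/- at E13 and 12.75, 12.28 and 11.63 in p63-/- and 12.38, 12.19 and 12.40 in p63+/- at E10, and the groups overlap. Its difference was 0.04 in p63-/- (95% interval -0.56 to 0.65) and -0.32 in p63+/- (95% interval -0.92 to 0.28). Col11a1 and Col11a2, the type XI chains that seed type II fibrils, were dim, with Col11a1 detected on 12 and Col11a2 on 23 of 24 arrays. Their differences were -0.15 and -0.34 in p63-/- and -0.22 and -0.14 in p63+/-. A second Col11a1 probe, detected on 6 arrays, read 0.66 in p63-/- (adjusted p = 0.00805) and 0.45 in p63+/- (adjusted p = 0.0624).

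Fibril-associated collagens split in direction. Col16a1, which coats fibrils in connective tissue, read 13.16, 12.27 and 11.68 in p63-/- and 12.99, 12.39 and 11.69 in p63+/- at E13 and 8.04, 7.72 and 9.16 in p63-/- and 7.69, 7.60 and 8.02 in p63+/- at E10, with no overlap. It rose by 4.07 (SE 0.47, adjusted p = 1.03e-06) in p63-/- and 4.59 (SE 0.47, adjusted p = 4.26e-07) in p63+/-. Col14a1, a collagen of tendon, fascia and skin, came up late. Its levels at E10 were 4.67, 4.69 and 6.29 in p63-/- and 4.64, 4.80 and 4.86 in p63+/-, at E11 4.68, 4.73 and 4.73 in p63-/- and 4.80, 4.97 and 5.00 in p63+/-, at E12 5.54, 6.19 and 4.94 in p63-/- and 5.31, 6.74 and 5.05 in p63+/- and at E13 8.88, 8.39 and 8.06 in p63-/- and 9.23, 8.91 and 7.85 in p63+/-. In p63+/- it was detected on 3 of 3 arrays at E13 and on 0 of 3 at E10 and was at least 8.35-fold higher at E13 (fitted log2 difference 3.90, adjusted p = 1.29e-06). That bound sets the E13 mean against, per E10 array, whichever is larger of the dimmest signal that was detected and what this probe itself read. In p63-/- the difference was 3.23 (SE 0.45, adjusted p = 7.36e-06), with detection on 3 of 3 arrays at E13 and on 1 of 3 at E10. Col22a1, a collagen of muscle-tendon junctions, read 10.24, 8.28 and 8.66 in p63-/- and 10.17, 8.51 and 8.52 in p63+/- at E13 and 7.70, 7.32 and 7.12 in p63-/- and 7.96, 7.56 and 7.94 in p63+/- at E10. Replicate 1 at E13 was the highest of its 3 arrays in both genotypes. The difference was 1.68 (SE 0.47, adjusted p = 0.00526) in p63-/- and 1.25 (SE 0.47, adjusted p = 0.032) in p63+/-. Without E13 replicate 1 of the same genotype it was 1.08 in p63-/- (adjusted p = 0.0505) and 0.69 in p63+/- (adjusted p = 0.23), and leaving out any 1 of the 3 E10 p63+/- arrays also took the p63+/- call away (adjusted p 0.0517 to 0.0966).

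On their brightest probes, the chains of type IX collagen, which join in 1 molecule on cartilage fibrils, moved in opposite directions. Of these, Col9a3 was dim and detected on 22 of 24 arrays, and its other probes were detected on 0 arrays. Col9a2 read 10.68, 11.27 and 10.70 in p63-/- and 10.60, 10.89 and 11.01 in p63+/- at E13 and 9.10, 8.79 and 9.64 in p63-/- and 8.97, 8.72 and 8.88 in p63+/- at E10, and rose by 1.70 (SE 0.22) in p63-/- and 1.98 (SE 0.22) in p63+/-. Col9a3 read 5.42, 5.70 and 5.63 in p63-/- and 5.92, 6.05 and 6.06 in p63+/- at E13 and 6.66, 7.01 and 6.97 in p63-/- and 7.00, 7.29 and 6.54 in p63+/- at E10, and differed by -1.30 (SE 0.20, adjusted p = 1.9e-05) in p63-/- and -0.93 (SE 0.20, adjusted p = 0.000546) in p63+/-. Col9a1 read 10.04, 11.07 and 10.53 in p63-/- and 10.11, 10.60 and 10.84 in p63+/- at E13 and 11.29, 11.31 and 11.05 in p63-/- and 11.53, 11.38 and 11.58 in p63+/- at E10. The E13 arrays lay below the E10 arrays in p63+/-, and in p63-/- they overlapped. Col9a1 differed by -0.67 (SE 0.27, adjusted p = 0.0418) in p63-/- and -0.98 (SE 0.27, adjusted p = 0.00484) in p63+/-. In p63-/- it was -0.42 (adjusted p = 0.232) without E13 replicate 1, and the call was also lost without E10 replicate 1 or 2 or E13 replicate 3 (adjusted p 0.0813 to 0.101). Another Col9a1 probe detected on 24 arrays read -1.11 in p63-/- and -1.34 in p63+/-, while a dim one, detected on 4 arrays, read 0.70 (adjusted p = 0.0109) and 0.25 (adjusted p = 0.36). Col19a1, the remaining fibril-associated member, was detected on 12 arrays and read 0.06 in p63-/- and 0.25 in p63+/-, neither past the threshold.

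**Figure D2:**
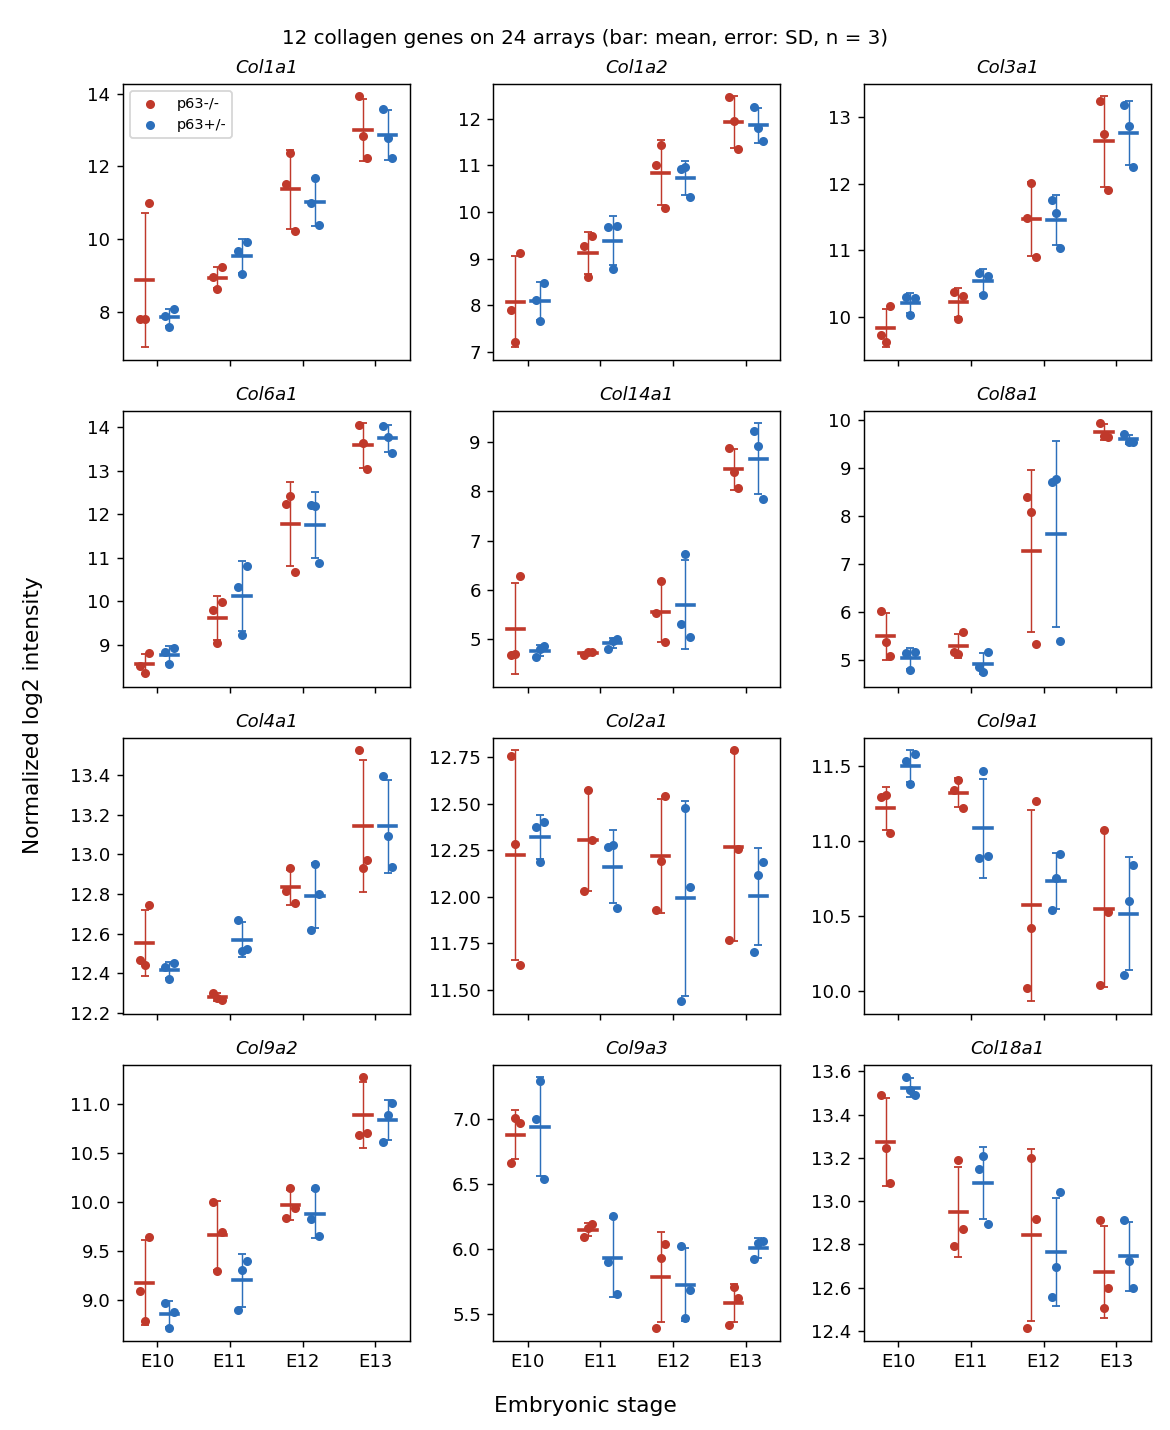
Normalized log2 intensity (vertical axes, a separate range in each panel) of 12 collagen genes on all 24 arrays by stage. Points are arrays, p63-/- left of p63+/-, horizontal bars are group means and error bars the SD (n = 3). Col1a1 on E10 p63-/- replicate 3 reads 11.00, and Col8a1 on the replicate 3 arrays at E12 reads 5.33 in p63-/- and 5.40 in p63+/-.

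Type VI collagen, the beaded filament around cells, rose at each step, though the E11 minus E10 calls of Col6a1 and Col6a2 were lost without single arrays. Col6a1 at E10 read 8.53, 8.35 and 8.81 in p63-/- and 8.84, 8.56 and 8.94 in p63+/-. At E11 it read 9.81, 9.06 and 10.00 in p63-/- and 10.33, 9.24 and 10.81 in p63+/-. At E12 it read 12.24, 12.42 and 10.67 in p63-/- and 12.21, 12.19 and 10.89 in p63+/-, and at E13 14.05, 13.64 and 13.04 in p63-/- and 14.03, 13.77 and 13.41 in p63+/-. Its difference was 5.01 (SE 0.45, adjusted p = 7.38e-08) in p63-/- and 4.96 (SE 0.45, adjusted p = 1.27e-07) in p63+/-, a 32.3-fold rise in p63-/- and 31.1-fold in p63+/-. Col6a2 read 12.12, 11.27 and 10.86 in p63-/- and 11.69, 11.52 and 10.97 in p63+/- at E13 and 7.12, 6.70 and 6.49 in p63-/- and 6.95, 6.71 and 7.11 in p63+/- at E10, and rose by 4.65 (SE 0.46) in p63-/- and 4.47 (SE 0.46) in p63+/-. A second Col6a1 probe detected on all 24 arrays gave 5.08 and 4.98. Dimmer probes gave smaller rises. Another Col6a1 probe, detected on 8 arrays, gave 2.07 in p63-/- and 1.81 in p63+/-, and another Col6a2 probe, detected on 13 arrays, 1.97 and 2.10.

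Short-chain type VIII collagen builds sheets under endothelium and in the eye. Col8a1 at E10 read 6.03, 5.37 and 5.08 in p63-/- and 5.14, 4.78 and 5.17 in p63+/-. At E11 it read 5.17, 5.12 and 5.59 in p63-/- and 4.85, 4.75 and 5.17 in p63+/-. At E12 it read 8.39, 8.09 and 5.33 in p63-/- and 8.72, 8.78 and 5.40 in p63+/-, and at E13 9.94, 9.68 and 9.66 in p63-/- and 9.71, 9.54 and 9.55 in p63+/-. The replicate 3 arrays of both genotypes at E12 read within the range at E11, while the other 4 read 8.09 to 8.78. In p63+/- Col8a1 was detected on 0 of 3 arrays at E10 and was at least 16-fold higher at E13 (fitted log2 difference 4.57, adjusted p = 2.76e-05). In p63-/- it was detected on 1 of 3 arrays at E10, and the difference was 4.27 (SE 0.70, adjusted p = 4.9e-05). Col8a2 read 11.58, 11.29 and 11.12 in p63-/- and 11.35, 10.82 and 10.87 in p63+/- at E13 and 10.45, 9.74 and 9.01 in p63-/- and 10.00, 9.72 and 10.16 in p63+/- at E10, and rose by 1.60 (SE 0.27) in p63-/- and 1.05 (SE 0.27) in p63+/-.

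In basement membranes, Col4a1 and Col4a2 form the common type IV network, and both rose by little. Col4a1 read 13.53, 12.93 and 12.97 in p63-/- and 13.39, 13.09 and 12.94 in p63+/- at E13 and 12.47, 12.44 and 12.74 in p63-/- and 12.43, 12.37 and 12.45 in p63+/- at E10, and its difference was 0.59 (SE 0.14, adjusted p = 0.00143) in p63-/- and 0.72 (SE 0.14, adjusted p = 0.000262) in p63+/-. Col4a2 read 12.85, 12.49 and 12.40 in p63-/- and 12.84, 12.51 and 12.39 in p63+/- at E13 and 11.77, 11.63 and 11.87 in p63-/- and 11.87, 11.75 and 11.91 in p63+/- at E10, and its difference was 0.82 (SE 0.13, adjusted p = 3.04e-05) in p63-/- and 0.74 (SE 0.13, adjusted p = 0.000107) in p63+/-. The E13 arrays of both genes lay above the E10 arrays in both genotypes. Col4a5 read 0.15 in p63-/- and 0.38 in p63+/-, neither past the threshold. Col4a6, its partner in the type IV network of smooth muscle and epithelium, was dim and read -1.07 (SE 0.29, adjusted p = 0.0035) in p63-/- and -0.26 (SE 0.29, adjusted p = 0.463) in p63+/-.

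Col4a1 and Col4a2 lie head to head, and the starts used for their windows (same assembly) are 21 bases apart, so the windows are shown as a shared start region. The RefSeq gene spans overlap there, as Col4a1 reaches 11312889 and Col4a2 begins at 11312805. The Col4a1 window is chr8:11312777-11313076 on the minus strand and the Col4a2 window chr8:11312555-11312854 on the plus strand, with 78 bases in common. Capitals mark the same motifs as above.
Col4a1: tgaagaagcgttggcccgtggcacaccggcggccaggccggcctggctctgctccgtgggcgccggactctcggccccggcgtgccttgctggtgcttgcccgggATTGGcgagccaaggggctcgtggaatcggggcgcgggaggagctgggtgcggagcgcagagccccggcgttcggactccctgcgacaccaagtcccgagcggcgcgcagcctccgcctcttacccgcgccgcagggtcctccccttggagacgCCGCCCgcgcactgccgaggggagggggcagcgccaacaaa
Col4a2: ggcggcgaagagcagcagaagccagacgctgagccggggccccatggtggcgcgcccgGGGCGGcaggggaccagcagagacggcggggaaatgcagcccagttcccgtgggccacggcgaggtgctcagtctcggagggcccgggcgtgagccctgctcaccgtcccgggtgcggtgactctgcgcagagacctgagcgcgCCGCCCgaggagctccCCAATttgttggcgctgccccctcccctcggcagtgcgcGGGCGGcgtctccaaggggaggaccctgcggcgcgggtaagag
The Col4a1 window holds 1 CCAAT and 1 GGGCGG match, the Col4a2 window 1 CCAAT and 3 GGGCGG matches, and neither holds TATAAA. The GGGCGG match of the Col4a1 window lies in the shared bases and is also 1 of the 3 in the Col4a2 window. Over the family, 15 members formed 8 pairs with no other protein-coding gene between them in the RefSeq order. Of these, 3 pairs rose together in both genotypes: Col4a1 with Col4a2, Col6a2 with Col6a1 (4.47 and 4.96 in p63+/-), and Col3a1 with Col5a2 (2.56 and 2.62). Col9a1 was lower beside Col19a1, which did not pass the test (-0.98 and 0.25 in p63+/-). Col4a6 and Col4a5 read -0.26 and 0.38, neither past the threshold in p63+/-. The pairs among Col4a3, Col4a4, Col6a4, Col6a5 and Col6a6 were detected on 0 arrays. The Col6a1 window, chr10:76725995-76726294 on the minus strand, is shown as that of the member with the largest difference in p63+/- among those with a window, and it holds none of the motifs.
Col6a1: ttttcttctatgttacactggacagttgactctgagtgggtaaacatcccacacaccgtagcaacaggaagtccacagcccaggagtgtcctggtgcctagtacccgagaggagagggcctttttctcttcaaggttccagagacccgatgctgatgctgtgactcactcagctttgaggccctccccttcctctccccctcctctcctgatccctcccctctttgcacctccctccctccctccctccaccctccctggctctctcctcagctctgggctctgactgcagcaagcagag

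The multiplexins, whose fragments include endostatin, went opposite ways. Col15a1 rose by 1.23 (SE 0.18) in p63-/- and 1.00 (SE 0.18) in p63+/-. Col18a1, the multiplexin of epithelial and vascular basement membranes, read 12.91, 12.51 and 12.60 in p63-/- and 12.91, 12.72 and 12.60 in p63+/- at E13 and 13.49, 13.25 and 13.08 in p63-/- and 13.57, 13.51 and 13.49 in p63+/- at E10. The E13 arrays lay below the E10 arrays in both genotypes, and the difference was -0.60 (SE 0.18, adjusted p = 0.00736) in p63-/- and -0.78 (SE 0.18, adjusted p = 0.00109) in p63+/-. A second Col18a1 probe detected on all 24 arrays gave -1.33 and -1.38.

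The 3 transmembrane collagens passed the test in p63-/- and not in p63+/-. Col13a1, found at muscle-nerve contacts, was detected on 3 of 3 p63-/- arrays at E13 and on 0 of 3 at E10, and was at least 1.59-fold higher at E13 (fitted log2 difference 1.24, adjusted p = 0.00942). In p63+/- it read 0.65 (adjusted p = 0.159). Without E13 p63-/- replicate 1 the p63-/- value was 0.87 (adjusted p = 0.0748). Col23a1 read 0.47 in p63-/- (adjusted p = 0.0359) and 0.25 in p63+/- (adjusted p = 0.265), and Col25a1, a collagen of motor nerve growth, read 0.73 (adjusted p = 0.00397) and 0.26 (adjusted p = 0.278). The other 3 detected Col25a1 probes (on 7 to 18 arrays) read -0.07, -0.01 and 0.10 in p63-/- (adjusted p 0.612 to 0.957), none past the threshold. The Col23a1 call in p63-/- was lost without E10 replicate 2 or 3 or E13 replicate 1 or 2 (adjusted p 0.0842 to 0.127). Of the other members, Col26a1, a secreted collagen-like protein first described in testis and ovary, rose by 1.92 (SE 0.16, adjusted p = 3.76e-08) in p63-/- and 1.50 (SE 0.16, adjusted p = 4.96e-07) in p63+/-. A second Col26a1 probe detected on all 24 arrays gave 0.30 (adjusted p = 0.0392) and 0.20 (adjusted p = 0.172). Col28a1, known from Schwann cells, was detected on 6 arrays. It was at least 1.06-fold higher at E13 in p63-/- (fitted log2 difference 0.47, adjusted p = 0.0291), a call lost without any 1 of E10 replicate 1 or 2 or E13 replicate 2 or 3 (0.30, adjusted p = 0.171, without E13 replicate 3). A second Col28a1 probe, detected on 4 arrays, read -0.23 in p63-/- (adjusted p = 0.232) and -0.29 in p63+/- (adjusted p = 0.14). The members called in p63-/- and not in p63+/- were Col13a1, Col23a1, Col25a1, Col28a1 and Col4a6. The difference between the genotypes' E13 minus E10 changes passed for 0 of 32 members (0.0710% of all genes), so none of these is shown to differ between genotypes.

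**Figure D3:**
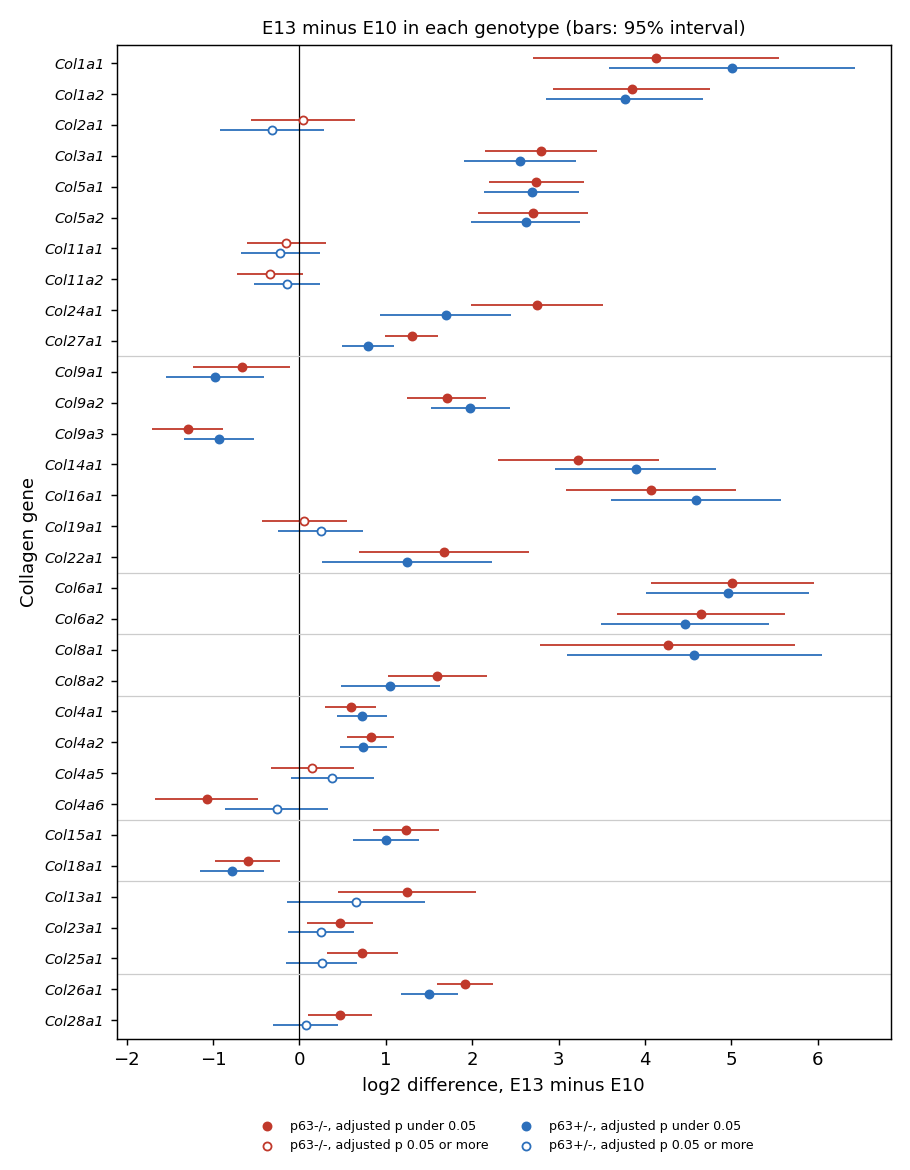
E13 minus E10 log2 difference of each of the 32 tested collagen genes, p63-/- above p63+/-, with 95% intervals from limma and filled points for adjusted p under 0.05. Col6a1 and Col6a2 lie near 5, Col2a1, Col11a1 and Col11a2 straddle 0, and Col9a1, Col9a3 and Col18a1 lie below 0 in both genotypes.

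Taken by day, averaged over both genotypes, some members rose at each step, and more of them at the later steps. The median log2 difference of the 32 members was 0.15 at E11 against E10. It was 0.26 at E12 against E11 and 0.53 at E13 against E12. The averages over both genotypes took the arrays of a stage as independent. Same-numbered arrays of both genotypes correlated in their deviations at 0.04 to 0.63. The SEs and adjusted p-values of the steps may therefore be too small. At E11 against E10, 9 of 32 members differed, beside 16.1% of all genes. Of these 7 were higher and 2 lower, where 9.55% of all genes were higher and 6.57% lower. The higher ones were Col1a2 (1.17 (SE 0.31, adjusted p = 0.0157)), Col6a1 (1.20), Col6a2 (1.10), Col24a1 (1.01), Col5a1 (0.60), Col26a1 (0.55) and Col27a1 (0.46), and the lower ones Col9a3 (-0.87) and Col18a1 (-0.38). Without E11 p63+/- replicate 3 the count was 5, and single arrays took away the calls of Col18a1 (adjusted p up to 0.117), Col5a1 (0.085), Col6a2 (0.0866) and Col6a1 (0.053). At E12 against E11, 16 members differed, beside 35.2% of all genes. Of these 15 were higher and 1, Col9a1 (-0.55), was lower, where 17.1% and 18.1% of all genes were higher and lower. Col8a1 (2.34, SE 0.50), Col1a1 (1.96, SE 0.48), Col6a1 (1.90) and Col6a2 (1.74) had the largest differences, and the calls of Col4a2 (adjusted p up to 0.119), Col9a1 (0.0959) and Col9a2 (0.0651) were lost without single arrays. At E13 against E12, 18 members differed, beside 39.7% of all genes, and 18 were higher and 0 lower, where 19.0% and 20.7% of all genes were. Col14a1 (2.93 (SE 0.32, adjusted p = 2.8e-06)), Col8a1 (2.23), Col22a1 (2.14) and Col16a1 (2.03) had the largest differences. Col1a2, Col26a1, Col5a1, Col6a1 and Col6a2 rose at each of the 3 steps, as did 2.32% of all genes.

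At E12 the replicate 3 arrays of both genotypes read low for 13 of 32 members, below the other 4 arrays of the stage, as they did for 14.0% of all genes. Of the 15 members that rose at E12, 10 were among them, and of all genes that rose at E12, 36.8% were. Col5a2, for example, read 9.02 on both replicate 3 arrays, against 9.96 to 10.21 on the other 4. With both arrays left out, the E13 minus E12 step of Col8a1 was 1.19 (adjusted p = 6.07e-05), against 2.23 with them, and lay below that of Col6a1 (1.39). It was 1.29 (adjusted p = 0.071) for Col1a1, 0.81 (adjusted p = 0.0749) for Col1a2, 0.25 (adjusted p = 0.104) for Col26a1 and 0.31 (adjusted p = 0.0555) for Col4a1, and these 4 no longer passed. The E12 minus E11 step of Col4a2 was 0.25 (adjusted p = 0.0785) without them. The summed level of the 7 muscle markers was 12.23 in p63-/- and 12.05 in p63+/- on these arrays, against 12.83 to 13.73 on the other 4. The part of these muscle levels in the collagen levels was not tested.

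E10 p63-/- replicate 3 also stood apart. All 8 visceral yolk sac markers (Afp, Apoa1, Apoa4, Apob, Ttr, Rbp4, Amn and Cubn) read highest there, with a summed level of 16.93 against 8.95 and 11.42 on the other E10 p63-/- arrays and 8.47 to 9.55 on E10 p63+/- arrays. On that array 8 of 32 members read above the other 5 E10 arrays (20.5% of all genes did) and 10 below them (36.7% of all genes did). By over 0.5 log2 units, Col1a1, Col14a1, Col16a1, Col1a2 and Col9a2 were above and Col8a2 and Col2a1 below. Leaving it out gave E13 minus E10 values in p63-/- of 3.76 (adjusted p = 1.47e-06) for Col14a1, 4.49 (adjusted p = 1.06e-06) for Col16a1, 1.94 (adjusted p = 1.39e-06) for Col9a2 and 1.23 (adjusted p = 0.000398) for Col8a2. The part of yolk sac RNA in these levels was not tested.

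Markers of other cell types also changed between E13 and E10 beside the collagens. Of all genes, 27.5% rose and 28.5% fell in p63-/-, and 25.4% rose and 28.0% fell in p63+/-. Of the bone markers, 3 of 3 tested (Sp7, Ibsp and Alpl) rose in both genotypes. The summed bone level was 11.07 to 14.00 in p63-/- and 11.46 to 13.15 in p63+/- at E13, against 8.58 to 8.74 and 8.60 to 8.82 at E10. The mature bone markers Bglap and Dmp1 were detected on 0 arrays. Muscle markers rose for 6 of 6 tested, with sums of 14.65 to 15.07 in p63-/- and 14.82 to 15.76 in p63+/- at E13, against 9.30 to 10.22 and 9.39 to 9.82 at E10. Endothelial markers rose for 7 of 7 tested, by a median of 0.80 in p63-/- and 0.96 in p63+/-. Of 7 cartilage markers tested, 4 rose in both genotypes, Acan and Matn1 among them. Sox5 (-0.87, adjusted p = 0.00671) and Hapln1 (-1.06, adjusted p = 0.0033) fell in p63+/- and 0 fell in p63-/-. Sox9 was detected on all 24 arrays from E10. Crest mesenchyme sums were 14.54 to 14.80 in p63-/- and 14.55 to 14.71 in p63+/- at E13, against 13.76 to 14.36 and 14.27 to 14.38 at E10. Of its 7 tested genes 2 rose (Prrx1 and Pdgfra) and 2 fell (Dlx2 and Hand2) in p63-/-, with a median of -0.24, and 1 rose (Pdgfra) and 3 fell (Dlx2, Dlx5 and Msx1) in p63+/-, with a median of -0.48. The part of these cell types in the collagen differences was not tested.

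The genotype comparison asked whether collagen genes differ between p63-/- and p63+/- jaws. Averaged over the stages, 0 of 32 members passed (limma, smallest adjusted p = 0.48), where 2.36% of all genes did, and 2 had an unadjusted p under 0.05. On this average all 32 intervals of 95% confidence lay within 1 log2 unit of 0, the widest reach being -0.76 on the lower side and 0.94 on the upper. The differences ran between -0.36 for Col13a1 and 0.23 for Col9a2, with a median of -0.03 against -0.01 over all genes. By stage, 0 of 32 passed at E10 (0.805% of all genes did), E11 (0.513%), E12 (0.300%) and E13 (0.308%), and 3, 2, 0 and 2 had an unadjusted p under 0.05. Fewer intervals lay within 1 log2 unit of 0 at single stages: 21 of 32 at E10, 22 at E11, 25 at E12 and 28 at E13. Their ends reached -2.02 at E11 and 2.45 at E10. For the difference between the E13 minus E10 changes, 16 of 32 intervals lay within it. The F test of genotype by stage passed for 0 of 32 (0.0158% of all genes), with 1 at an unadjusted p under 0.05.

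The members with the smallest p for genotype are given as values. Col23a1 read 9.98, 9.70 and 9.54 in p63-/- and 10.14, 10.17 and 10.19 in p63+/- at E10, and at E11 10.21, 9.94 and 10.55 in p63-/- and 10.36, 10.20 and 10.36 in p63+/-. At E12 it read 9.68, 10.37 and 10.53 in p63-/- and 10.00, 10.36 and 10.47 in p63+/- and at E13 10.25, 10.27 and 10.12 in p63-/- and 10.29, 10.44 and 10.50 in p63+/-. The p63-/- arrays lay below the p63+/- arrays at E10 and E13, and the groups overlapped at E11 and E12. Its average difference was -0.19 (SE 0.09, adjusted p = 0.48). Col9a2 at E11 read 9.99, 9.29 and 9.70 in p63-/- and 8.90, 9.31 and 9.40 in p63+/-, and at E12 9.83, 10.14 and 9.93 in p63-/- and 9.82, 10.14 and 9.66 in p63+/-. The groups overlapped at both, and the average difference was 0.23 (SE 0.11, adjusted p = 0.489). Col28a1 read 5.00, 5.20 and 5.46 in p63-/- and 5.00, 5.58 and 5.23 in p63+/- at E10, 5.53, 5.60 and 5.78 in p63-/- and 5.40, 5.00 and 5.41 in p63+/- at E11, 5.40, 5.39 and 5.41 in p63-/- and 5.52, 5.11 and 5.39 in p63+/- at E12 and 5.36, 5.68 and 6.03 in p63-/- and 5.24, 5.58 and 5.20 in p63+/- at E13. Only the E11 groups did not overlap, and the average difference was 0.18 (SE 0.09, adjusted p = 0.505). Col26a1 at E10 read 11.87, 11.75 and 11.72 in p63-/- and 12.11, 12.11 and 12.38 in p63+/-, without overlap. It read 12.36, 12.24 and 12.75 in p63-/- and 12.76, 12.26 and 12.84 in p63+/- at E11, 13.46, 13.54 and 12.99 in p63-/- and 13.38, 13.42 and 13.23 in p63+/- at E12 and 13.79, 13.70 and 13.60 in p63-/- and 13.74, 13.71 and 13.66 in p63+/- at E13, with overlap, and its average difference was -0.15 (SE 0.08, adjusted p = 0.544).

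Single stages added members with an unadjusted p under 0.05 that were singled out after their values were seen. At E10 the difference was -0.92 for Col24a1 (adjusted p = 0.251), -0.42 for Col26a1 (adjusted p = 0.23) and -0.42 for Col23a1 (adjusted p = 0.302). For each of these genes E10 p63-/- replicate 3 read below the other 5 E10 arrays, as it did for 36.7% of all genes. At E11 the difference was 0.56 for Col25a1 (adjusted p = 0.486) and 0.46 for Col9a2 (adjusted p = 0.986). At E13 it was 0.39 for Col27a1 and -0.43 for Col9a3, both at an adjusted p of 1. None passed the threshold. The interval with the highest upper end at E10 belonged to Col1a1, at 1.02 (-0.40 to 2.45), and without E10 p63-/- replicate 3 its difference was -0.04 (adjusted p = 0.984). For Col4a1 the average difference was -0.03 (95% interval -0.17 to 0.12) and for Col18a1 -0.09 (-0.28 to 0.09). On the same arrays 2 of 6 tested epithelium markers were higher and 3 lower in p63-/- on the average of the stages.

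**Figure D4:**
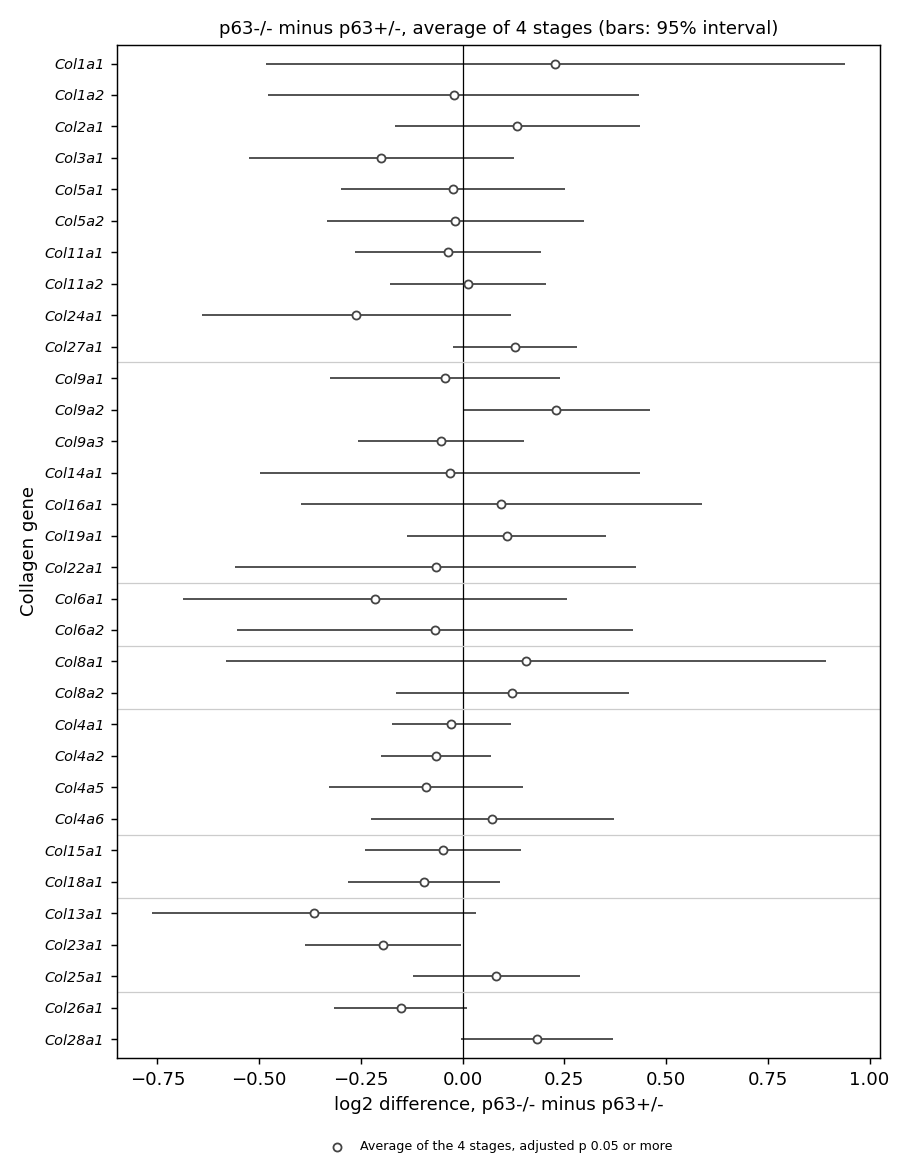
p63-/- minus p63+/- log2 difference averaged over the 4 stages for each of the 32 tested collagen genes, with 95% intervals from limma. All intervals lie between -0.76 and 0.94 and all points are open, since the smallest adjusted p is 0.48.

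Genes that make, process, sense and cut collagen were read from lists of known members. Of 21 tested genes of collagen synthesis (hydroxylases, chaperones and export factors), 18 rose in p63-/- and 20 in p63+/- between E10 and E13, and 0 fell, beside 27.5% and 25.4% of all genes that rose. P4ha3, a prolyl hydroxylase subunit, rose by 2.23 in p63-/- and 1.97 in p63+/-, Fkbp14, a proline isomerase of the endoplasmic reticulum, by 2.20 and 1.99, and P3h3, another member of the prolyl hydroxylase family, by 2.16 and 1.91. Of 7 maturation genes, 5 rose and 1 fell in p63-/-, and 4 rose and 1 fell in p63+/-. Lox, the enzyme that cross-links collagen, rose by 4.28 in p63-/- and 4.30 in p63+/-, its relative Loxl1 by 2.36 and 2.46, and the procollagen protease Bmp1 by 1.89 and 1.42. The gene that fell was Pcolce, an enhancer of that protease (-0.34 and -0.65).

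Among 7 collagen receptors, 5 rose in p63-/- and 4 in p63+/-, and 0 fell, where of all genes 27.5% rose and 28.5% fell in p63-/- and 25.4% rose and 28.0% fell in p63+/-. Itga11, the integrin chain of fibroblasts that binds type I collagen, rose by 3.88 in p63-/- and 3.39 in p63+/-, Ddr1, a receptor kinase, by 1.10 and 1.23, and Itgb1, the integrin chain that pairs with that of Itga11, by 0.88 and 0.79. Of 10 breakdown genes, 9 rose in p63-/- and 0 fell, and 9 rose and 1 fell, Mmp13 (-0.36), in p63+/-. Ctsk, the collagen-cutting protease of osteoclasts, rose by 4.40 in p63-/- and 3.60 in p63+/-, Fap, a fibroblast surface protease, by 3.60 and 3.28, and Mmp9, a gelatinase, by 3.26 and 3.86. Of 13 laminins, nidogens and heparan sulphate proteoglycans that share basement membranes with type IV collagen, 8 rose and 2 fell in p63-/-, and 11 rose and 2 fell in p63+/-. Lama2, the laminin chain of muscle, rose by 1.59 and 1.33, while Lama1 (-1.28 and -1.22) and Lama5 (-1.40 and -0.85), chains of early and epithelial membranes, fell. On the genotype average 0 genes of these 5 lists passed, beside 2.36% of all genes.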

How the data were processed

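For each of 24 arrays the authors deposited the intensity of 45281 probes, linear and not scaled between arrays. Per the file headers, a detection p-value stands beside each. The authors' processed values, a deposited log2 table with array medians of 7.92 to 7.93, served as an alternative, and its steps are not given beyond BeadStudio, lumi and RMA in the submitters' processing notes. From the intensities, limma 3.58.1 in R 4.3.3 corrected background, quantile-normalized and took log2 (neqc, offset 16). The annotation gave 34885 probes 1 gene, 18 several and 10378 none. A gene was read on its brightest probe and tested if that probe was detected (p below 0.05) on 3 or more arrays. Limma fitted 8 group means (16 residual degrees of freedom, 2.96 prior), and p-values were adjusted by Benjamini-Hochberg over 12678 genes with a threshold of 0.05. Probe levels of different genes were not compared, and summed marker levels are log2 of the summed intensities. The fit was tested on simulated data. Alternatives changed the filter, offset, normalization, probes, weights, block and arrays.

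Members, lists and tests were chosen with earlier results of these data known. By rule, values by array are given for the 4 smallest genotype p-values and for the 6 highest and 6 lowest E13 minus E10 differences in p63+/- past the threshold, with chains of the same molecule, and up to 3 genes are named per list for the largest changes. Pcolce, Mmp13 and the marker genes with values were named after their values were seen. Promoter windows are from RefSeq. With 3 arrays per group, their number limits the precision.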

Additional observations from a re-analysis of the deposited data

How the results depend on the processing

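Every count of collagens past the threshold for genotype stayed at 0 of the tested members on the average, at E11, E12 and E13 in the interaction and in the difference between the E13 minus E10 changes, under all alternatives run. At E10 it was 1 with a replicate block, Col24a1 (-0.92, adjusted p = 0.0432), and 0 otherwise. Replicate numbers are not stated to mark litters: same-numbered arrays of a stage correlated in their deviations at 0.04 to 0.63, over 0.1 in 9 of 12 pairs, and 11 of 12 correlated best with their own number. Counts over all genes moved more. The block raised those at E10 to 210, against 102 without it. Array weights gave 599 on the average (299 without), 298 at E10, 119 at E11 (65 without), 62 at E12 (38) and 279 at E13 (39), 67 in the interaction (2) and 117 in the difference of changes (9), and the compared arrays only gave 26 at E10, 26 at E11 and 8 at E12. Without single arrays the E10 count ran between 51 and 429. The block could not be fitted to stage differences, since each block lies in 1 stage.

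The E13 minus E10 count ran from 23 to 27 in p63-/- and 21 to 23 in p63+/- when single arrays were left out, and from 21 to 27 and 20 to 23 under other settings, the lowest with a detection p under 0.01 on 12 arrays, which left 23 members. The counts for E11 minus E10 ran from 5 to 10 without single arrays and 7 to 12 otherwise, for E12 minus E11 from 13 to 17 and 15 to 19, and for E13 minus E12 from 18 to 20 and 14 to 20, with 14 when both E12 replicate 3 arrays were left out, an alternative chosen after seeing the data. Of 3113 alternative values of 96 member results, 3031 kept direction and side of the threshold, 82 lost the call and 0 changed sign. Most of these results were past the threshold to begin with, so a kept sign was likely in advance. The genotype differences of Col1a1 and Col24a1 at E10 were not among them. That of Col1a1 changed sign without E10 p63-/- replicate 3, and that of Col24a1 gained the call with the block. Besides the single arrays named with the results, Col28a1 in p63-/- lost its call with quantile normalization alone (0.19), with the authors' processed values (0.08) and with the compared arrays only. Col9a1 in p63-/- lost it with the authors' processed values (-0.58), no filter, array weights (-0.36) and the compared arrays only. At E11 the authors' values ended the calls of Col24a1 and Col6a2, quantile normalization alone that of Col6a2, and no filter that of Col18a1. The cause was not tested. Dim members (Col11a1, Col14a1, Col19a1, Col28a1 and Col8a1 were detected on 12 or fewer arrays) lie near background, where differences are compressed. Of 27 other detected probes in 19 members, 20 had the sign of the brightest probe in p63-/- and 23 in p63+/-.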
